A study of Mus musculus with 12 samples.

Results

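The 10 genes described here belong to the KLF, FOXO and BTG/TOB families, which are known for keeping resting lymphocytes out of the cell cycle: Klf2, Klf3, Klf4, Klf6, Klf13, Foxo1, Foxo3, Tob1, Btg1 and Btg2. They were found in the deposited table by the mouse Entrez gene of each symbol, so all 10 were present among 27179 genes, and all 10 were among the 12750 genes that passed the filter on low counts. RNA-Seq was examined in 12 libraries of mouse splenic B cells, 2 for each of 6 stages. Naive resting cells came from young adult male C57BL/6 mice and were sorted as IgM+ IgDhi B cells, with no LPS treatment. All other stages came from B cells of the same strain that were isolated by negative selection and cultured with 25 µg per ml of LPS (lipopolysaccharide, a bacterial product that activates B cells through TLR4). In the short cultures cells were labelled with the division dye CTV, and those that had not divided were sorted as CD69+ with the highest dye level at 3 h, 10 h and 33 h. The expanded B cells (CD22+ CD138-) and the plasmablasts (CD22- CD138+, the cells that begin to secrete antibody) were harvested on day 4 from separate long-term cultures, which the study's methods describe as set up at a lower cell density. The naive stage therefore differs from the others in cell isolation, sorting gate and the culture itself as well as in LPS. Only the naive gate is described as selecting IgDhi cells. Both day 4 stages differ from 33 h in cell density and sorting gate as well as in time. In each case these differences cannot be told apart.

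A resting lymphocyte is held in quiescence by transcription factors and RNA decay factors that must be reduced or inactivated before it divides. KLF2 is a zinc finger factor that maintains quiescence and the expression of homing receptors, and the FOXO factors drive inhibitors of the cell cycle and of growth until AKT, downstream of PI3 kinase, phosphorylates them and moves them out of the nucleus. BTG and TOB proteins have no enzyme activity of their own and bring the CCR4-NOT deadenylase to mRNAs, which shortens their poly(A) tails. RNA levels, as measured here, say nothing of where a FOXO protein sits in the cell.

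Of the windows from 250 bases before to 50 bases after the start site of each gene (RefSeq, GRCm38.p6), which were found for all 10 genes, only those of Btg1 and Btg2 held any of the sequence motifs searched. They are printed for this reason, with the motif in capitals. The forkhead motif TGTTTAC, the core bound by FOXO factors, stands at -204 to -198 from the Btg1 start site, at chr10:96616767-96616833 on the plus strand for the stretch shown. The cAMP response element TGACGTCA, a palindrome, stands at -166 to -159 from the Btg2 start site, at chr1:134079284-134079351 on the minus strand for the stretch shown.
Btg1: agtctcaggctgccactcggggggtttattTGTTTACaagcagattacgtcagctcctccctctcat
Btg2: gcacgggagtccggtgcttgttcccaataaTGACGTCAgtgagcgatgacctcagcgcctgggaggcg
Both strands were searched. For Tob1, on the plus strand, the window was chr11:94211204-94211503, which lies inside the gene span given below. The bases just before that span were not searched. TGTTTAC was in 3.66% of the 32544 RefSeq promoter windows and in 1 of the 10, and TGACGTCA in 1.8% and in 1 of the 10. The KLF motif CCACACCC (3.57% of all windows) and the CArG box, the site of serum response factor (1.64%), were in 0 of the 10. The 10 windows were rich in G and C, with 61.3% to 76.7% against a median of 53.0% over all windows. A match describes the letters only, and a window without a match says nothing about binding of the factor elsewhere.

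The total count per library ran from 23026619 to 60585587. Levels are given as RPKM, reads scaled by the deposited exon length in kilobases and by the TMM-scaled library size, so that genes can be compared with each other. The libraries of a group are biological replicates in the study's account, and with 2 against 2 an exact permutation test cannot go below p = 0.333, so all tests come from edgeR's fit over all 12750 genes. A gene is called where glmTreat finds its change larger than 1.5-fold at an adjusted p of 0.05. The log2 fold changes are given with their SE. The fit gives each gene a spread shared by all stages, but replicates differed more at some stages than at others. The chi-square per degree of freedom between replicates was 44.2 at 3 h and 39.5 at 33 h. It was 15.5 at 10 h, 6.98 in naive cells, 8.31 in expanded cells and 8.06 in plasmablasts. The SE and adjusted p of comparisons with 3 h or 33 h may therefore understate the spread there.

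Most of the 10 quiescence genes fell after activation and stayed below their naive level. Relative to naive cells, 5 of the 10 fell by 3 h, 10 by 10 h, 10 by 33 h, 9 in the expanded population and 7 in plasmablasts, and 0 rose in any of these comparisons. Among all genes tested, the 3 h stage had 24.3% called lower and 21.0% higher, the 10 h stage 19.9% and 19.5%, the 33 h stage 20.8% and 22.3%, the expanded cells 22.2% and 24.9%, and the plasmablasts 23.4% and 26.6%. In the same order of stages, the median log2 fold change of the 10 from naive was -0.89, -1.63, -1.91, -1.72 and -1.31, where the medians over all genes tested were -0.03, 0.02, 0, 0.03 and 0.02. TMM scaling assumes that most genes do not change, so medians near 0 over all genes follow largely from the scaling. A fall here is relative to the other mRNA of a library, and RNA per cell was not measured. These 5 comparisons share the 2 naive libraries and are not independent of each other.

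**Figure D1:**
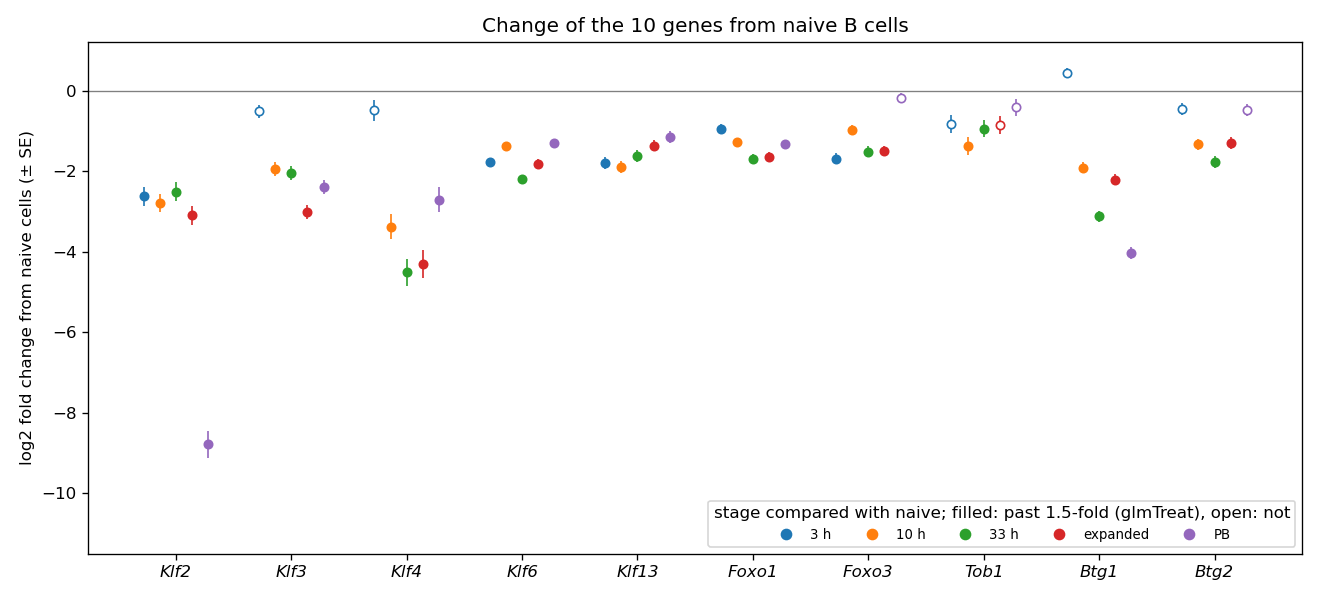
The log2 fold change (± SE) of each of the 10 genes from naive B cells to each later stage, filled where it was past 1.5-fold by glmTreat and open where it was not. All points lie below 0 except Btg1 at 3 h (0.45), and Klf2 in plasmablasts lies lowest, at -8.79.

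Summed by cell type, markers of other spleen cells were highest in the naive libraries. The 7 myeloid markers summed to 275 and 121 CPM (counts scaled to library size) in naive replicates 1 and 2, against 2.43 to 37.5 over the 3 undivided LPS stages and the expanded cells, and 0.341 to 0.582 in plasmablasts. Of these markers, 3 (Lyz2, S100a8 and S100a9) were at 0 counts in expanded cells. Itgam went the other way, with means of 6.91 CPM in naive and 23.0 in expanded cells, and Adgre1 was at 10.6 and 13.2. From naive to expanded cells, 1 of the 7 was called higher and 5 lower. The 4 erythroid markers in the table summed to 142 to 191 CPM in naive cells and to at most 1.74 later, the 6 T cell markers to 3.37 to 3.44 in naive cells and to at most 1.55 later, and the 3 NK cell markers to 3.81 to 4.80 in naive cells and to at most 0.395 later. The 6 B cell markers summed to 9671 to 10010 CPM in naive cells, 4137 to 5177 in the 4 activated and expanded groups and 2045 to 2102 in plasmablasts, none was at 0, and 5 of 6 also fell from naive cells to each undivided LPS stage and 6 of 6 to both day 4 groups. As a sum, the 5 plasmablast markers were highest in plasmablasts, at 16396 to 16909 CPM. Irf4 alone was highest at 3 h, at a mean of 2270 CPM against 902 in plasmablasts. The T cell marker Cd3g was at 0.396 CPM in naive cells and 0.853 in plasmablasts. There, 1 of 5 T cell markers tested was called higher than in naive cells and 3 lower. Without either naive library, all calls of the 10 genes against naive cells held apart from that of Tob1 at 33 h, and beyond this the part of these markers in the differences was not tested. In sorted bulk populations, a change in the share of cells that express a gene and a change per cell cannot be told apart.

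**Figure D2:**
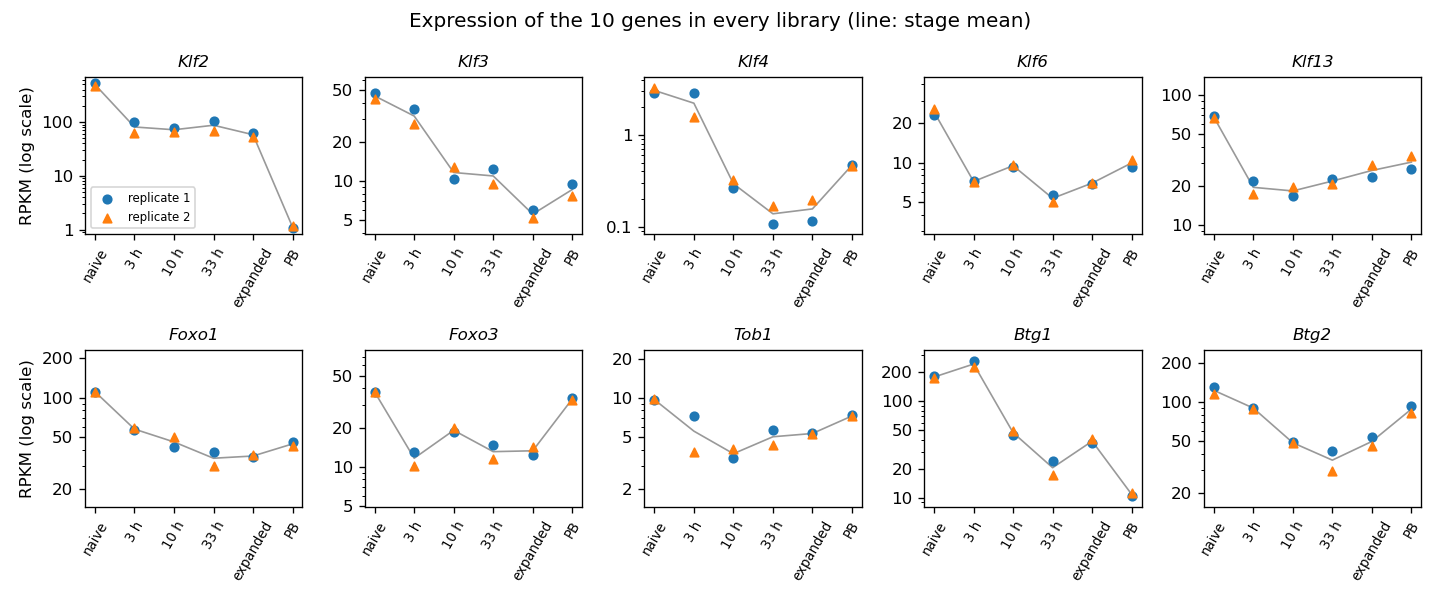
RPKM (log scale) of each gene in all 12 libraries by stage, circles for replicate 1 and triangles for replicate 2, with a line through the stage means. Klf2 runs from 525 and 471 in naive libraries to 1.07 and 1.17 in plasmablasts (PB), whereas Foxo3 returns to 33.4 and 32.8 in plasmablasts from 37.6 and 37.3 in naive cells.

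Klf2 (Entrez 16598, chr8:72319062-72321654), the KLF factor of naive lymphocytes, had the highest level of the 10 genes in naive cells. The naive libraries had RPKM values of 525 and 471, the 3 h pair 98.6 and 63.5, the 10 h pair 78.6 and 65.3, the 33 h pair 106 and 68.6, the expanded pair 63.0 and 53.5, and the plasmablast pair 1.07 and 1.17. The naive and the plasmablast libraries stand apart from all others on opposite sides, and the libraries of 3 h, 10 h and 33 h overlap. The log2 fold change was -2.62 ± 0.23 from naive to 3 h (adjusted p = 5.0e-06) and -5.70 ± 0.31 from expanded cells to plasmablasts (adjusted p = 1.5e-07), which is 51.8-fold lower. None of the 3 steps between these was called, at -0.17 ± 0.22 from 3 h to 10 h, 0.28 ± 0.22 from 10 h to 33 h and -0.58 ± 0.22 from 33 h to expanded cells. The plasmablast values rest on 46 and 60 counts, well above the 3 counts taken as the floor. From naive cells to plasmablasts the change was -8.79 ± 0.33, or 443-fold lower, the widest span of the 10 genes.

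Klf3 (Entrez 16599, chr5:64803521-64832901), a KLF factor that acts mainly as a repressor, was first called lower than in naive cells at 10 h. In RPKM, the naive pair had 47.6 and 42.6, the 3 h pair 35.8 and 27.4, the 10 h pair 10.5 and 12.8, the 33 h pair 12.5 and 9.48, the expanded pair 6.00 and 5.17, and the plasmablast pair 9.50 and 7.76. The 3 h libraries lie below the naive and above all later ones. The change from naive to 3 h, -0.52 ± 0.17, was not past 1.5-fold (adjusted p = 0.59), and that from 3 h to 10 h was (-1.44 ± 0.17, adjusted p = 2.2e-04). From 33 h to expanded cells the change was -0.98 ± 0.18 with an adjusted p of 0.052, and 8 alternatives called it. Among these were the fit without 33 h replicate 2 (-1.15), and the F-test and DESeq2 Wald test, neither with a fold threshold. Expanded cells held the lowest values of Klf3, with a log2 fold change of -3.01 ± 0.18 from naive cells (adjusted p = 4.2e-08).

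Klf4 (Entrez 16600, chr4:55527137-55532475), known in B cells as a brake on proliferation, was the least abundant of the 10. The naive libraries had RPKM values of 2.84 and 3.29, the 3 h pair 2.89 and 1.55, the 10 h pair 0.266 and 0.321, the 33 h pair 0.108 and 0.169, the expanded pair 0.115 and 0.197, and the plasmablast pair 0.473 and 0.463, on 14 to 293 counts. Naive and 3 h libraries overlap and all later ones lie far below them. It fell by 2.90 ± 0.32 on the log2 scale from 3 h to 10 h (adjusted p = 2.2e-05) and its log2 fold change from naive cells to 33 h was -4.52 ± 0.35. It rose from expanded cells to plasmablasts (1.60 ± 0.41, adjusted p = 0.024). That call was lost without expanded replicate 1, at 1.24 with an adjusted p of 0.18, without either plasmablast replicate (1.61 and 1.64, adjusted p = 0.071 and 0.075), with library size alone as scaling (1.26, adjusted p = 0.063) and with the newer quasi-likelihood method (1.61, adjusted p = 0.0501). Klf4 is also expressed by monocytes. The summed myeloid markers were 275 CPM in naive replicate 1 (Klf4 at 2.84 RPKM) and 121 in replicate 2 (3.29), and their part in the Klf4 values was not tested.

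Klf6 and Klf13 were lower than in naive cells from 3 h on. Klf6 (Entrez 23849, chr13:5861489-5870393), a broadly expressed KLF factor that restrains growth, had RPKM values of 23.3 and 25.7 in the naive pair, 7.30 and 7.06 in the 3 h pair, 9.32 and 9.66 in the 10 h pair, 5.68 and 4.99 in the 33 h pair, 6.91 and 7.05 in the expanded pair, and 9.35 and 10.6 in the plasmablast pair. Klf13 (Entrez 50794, chr7:63886351-63938915), a KLF factor with known roles in lymphocytes, had RPKM values of 69.5 and 66.3 in the naive pair, 21.9 and 17.3 in the 3 h pair, 16.9 and 19.9 in the 10 h pair, 22.9 and 20.9 in the 33 h pair, 23.6 and 29.2 in the expanded pair, and 27.0 and 34.2 in the plasmablast pair. All naive libraries lie above all others for both genes. From naive to 3 h the log2 fold change was -1.77 ± 0.11 for Klf6 (adjusted p = 1.1e-07) and -1.79 ± 0.15 for Klf13 (adjusted p = 2.8e-06). Klf6 then fell once more from 10 h to 33 h (-0.83 ± 0.10, adjusted p = 0.031). This call was lost under 6 alternatives, among them each of 3 fits without 1 library, 10 h replicate 1 (adjusted p = 0.063), 10 h replicate 2 (0.13) or 33 h replicate 2 (0.18). Klf13 had no called change after 3 h from stage to stage, with log2 fold changes between -0.09 and 0.27.

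Set side by side per length, the KLF family changed its make-up. Klf2 contributed 73.6% ± 0.83 (SD, n = 2) of the summed RPKM of the 17 Klf genes in the table in naive cells, 34.9% ± 2.99 at 3 h, 56.4% ± 6.10 at 33 h and 1.65% ± 0.0021 in plasmablasts. Klf13 contributed 10.1% ± 0.31 in naive cells and 44.9% ± 4.84 in plasmablasts, where it was the most abundant Klf mRNA at 30.6 RPKM, and Klf6 went from 3.64% ± 0.49 to 14.7% ± 0.40. At 3 h, Klf16 held 29.5% ± 1.33, against 3.14% ± 0.15 in naive cells. The summed RPKM of the family fell from 707 and 645 in the naive libraries to 266 and 194 at 3 h and to 65.0 and 70.8 in plasmablasts, so a rising share could go with a falling level, as it did for Klf13 and Klf6.

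**Figure D3:**
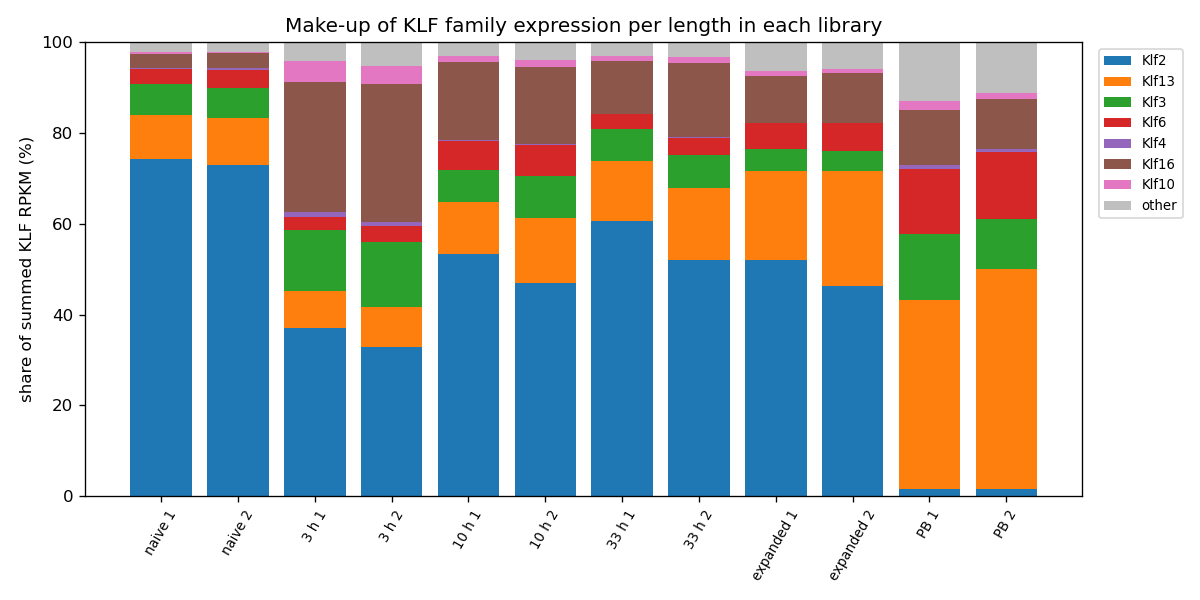
Each bar is 1 library (stage and replicate), split by the share of each gene in the summed RPKM of the 17 Klf genes, in percent, with genes not listed pooled in grey. Klf2 fills most of the naive bars (73.6% on average) and is a thin band in plasmablasts (1.65%), where Klf13 fills 44.9%.

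The other Klf genes moved in both directions. Of 12 others, 7 were tested, and from naive to 3 h 3 rose and 3 fell. Klf10, which TGF-beta and early growth signals induce, rose by 2.10 ± 0.22 on the log2 scale at 3 h (adjusted p = 1.0e-05), from a mean of 2.36 to 10.2 RPKM. Klf16 rose by 1.67 ± 0.11, from 21.2 to 67.5 RPKM, and Klf9 by 1.13 ± 0.19, from 1.62 to 3.56 RPKM. In plasmablasts Klf16 was lower than in naive cells (-1.44 ± 0.12), and Klf9 was the only called gene of the list that was higher (1.17 ± 0.18). Klf11 reached -3.22 ± 0.18 at 10 h, Klf12 -2.14 ± 0.24 at 10 h and Klf7 -1.66 ± 0.25 in plasmablasts, all relative to naive cells. From naive cells to 10 h, 0 of the 7 rose and 3 fell, to 33 h 0 and 4, to expanded cells 0 and 4, and to plasmablasts 1 and 5. Beside these, 19.5% to 26.6% of all genes tested rose from naive cells to a later stage and 19.9% to 24.3% fell.

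Foxo1 (Entrez 56458, chr3:52268337-52350109), the main FOXO factor of B cells, had RPKM values of 111 and 111 in the naive pair, 56.2 and 58.7 in the 3 h pair, 41.8 and 49.8 in the 10 h pair, 38.6 and 30.05 in the 33 h pair, 35.3 and 36.2 in the expanded pair, and 45.5 and 43.0 in the plasmablast pair. Its naive libraries lie above all others, the 3 h libraries come next, and later libraries run from 30.05 to 49.8. The log2 fold change from naive to 3 h was -0.95 ± 0.11 (adjusted p = 0.0021) and that from naive to 33 h -1.69 ± 0.12 (adjusted p = 6.0e-07). No step after 3 h was called for Foxo1, and in plasmablasts it was still 2.51-fold lower than in naive cells (-1.33 ± 0.11, adjusted p = 8.0e-06). By the F-test with no fold threshold, it fell from 3 h to 10 h (-0.33 ± 0.11, adjusted p = 0.023). By that test it also fell from 10 h to 33 h (-0.41 ± 0.11, adjusted p = 0.0096) and rose from expanded cells to plasmablasts (0.31 ± 0.11, adjusted p = 0.033). The signs of the first and last of these turned with library size alone as scaling.

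Foxo3 (Entrez 56484, chr10:42181845-42276695) binds the same DNA motif as Foxo1, and its plasmablast level was near its naive one. In RPKM, the naive pair had 37.6 and 37.3, the 3 h pair 13.0 and 10.2, the 10 h pair 18.4 and 19.7, the 33 h pair 14.7 and 11.4, the expanded pair 12.4 and 14.1, and the plasmablast pair 33.4 and 32.8. The plasmablast libraries lie close below the naive ones and above all others. Foxo3 fell in the first 3 h (-1.69 ± 0.14, adjusted p = 2.5e-06) and rose from expanded cells to plasmablasts (1.32 ± 0.14, adjusted p = 1.1e-04), which is 2.50-fold. From 3 h to 10 h it differed by 0.72 ± 0.14 (adjusted p = 0.16), a difference called without 3 h replicate 1 (0.90, adjusted p = 0.022) and with library size alone as scaling (1.05, adjusted p = 0.0018). Its value in plasmablasts relative to naive was -0.18 ± 0.13 (adjusted p = 1), which does not show that the levels are equal. The ratio of Foxo1 to Foxo3 RPKM was 2.95 and 2.98 in the naive pair, 4.31 and 5.73 in the 3 h pair, 2.27 and 2.52 in the 10 h pair, 2.62 and 2.63 in the 33 h pair, 2.84 and 2.56 in the expanded pair, and 1.36 and 1.31 in the plasmablast pair. The ratio was highest at 3 h and lowest in plasmablasts, with no overlap of either stage with any other.

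**Figure D4:**
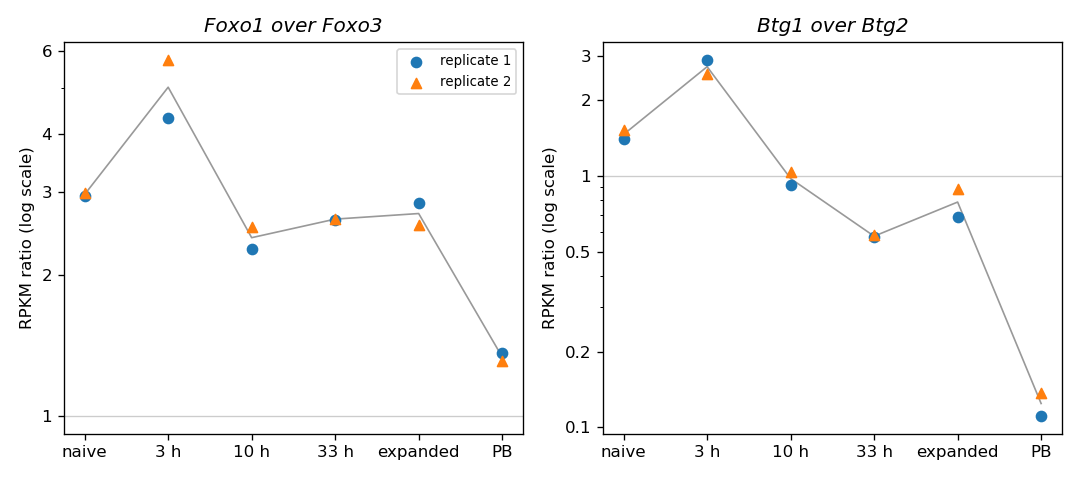
The ratio of Foxo1 to Foxo3 RPKM (left) and of Btg1 to Btg2 RPKM (right) in each library by stage, on log scales, with circles for replicate 1, triangles for replicate 2 and a line through the stage means. Both ratios are highest at 3 h and lowest in plasmablasts, where they are 1.36 and 1.31, and 0.111 and 0.138.

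Btg1 (Entrez 12226, chr10:96617001-96622813), an antiproliferative adaptor of the CCR4-NOT deadenylase, was the only one of the 10 not highest in naive cells. The naive libraries had RPKM values of 182 and 176, the 3 h pair 261 and 227, the 10 h pair 45.1 and 49.7, the 33 h pair 23.8 and 17.3, the expanded pair 37.1 and 40.3, and the plasmablast pair 10.4 and 11.3. No stage overlaps another. The higher level at 3 h (0.45 ± 0.13) was not past 1.5-fold by glmTreat (adjusted p = 0.85), and differed from 0 by the F-test with no fold threshold (adjusted p = 0.0070). Btg1 then fell from 3 h to 10 h (-2.36 ± 0.13, adjusted p = 1.3e-07) and from 10 h to 33 h (-1.20 ± 0.13, adjusted p = 5.8e-04), rose from 33 h to expanded cells (0.91 ± 0.13, adjusted p = 0.032) and fell from these to plasmablasts (-1.83 ± 0.13, adjusted p = 1.9e-06). The rise was lost without 33 h replicate 2 (0.70, adjusted p = 0.29), without expanded replicate 1 (0.97, 0.056) and without expanded replicate 2 (0.85, 0.18). In plasmablasts Btg1 was 16.4-fold lower than in naive cells (-4.04 ± 0.15).

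Btg2 (Entrez 12227, chr1:134074865-134079155), a close relative that p53 is known to induce, had a mean of 88.0 RPKM in plasmablasts. This was below its naive mean of 123, and Btg1 had its lowest mean in plasmablasts, 10.9. In RPKM, the naive pair had 130 and 115, the 3 h pair 90.4 and 88.8, the 10 h pair 49.1 and 48.1, the 33 h pair 41.7 and 29.7, the expanded pair 53.8 and 45.6, and the plasmablast pair 93.6 and 82.4. Plasmablast libraries lie below both naive ones, overlap those of 3 h and lie above those of 10 h, 33 h and expanded cells. The fall from 3 h to 10 h (-0.88 ± 0.14, adjusted p = 0.024) was called, and was lost without 3 h replicate 1 (adjusted p = 0.080) or either 10 h replicate (0.061 and 0.070), and with library size alone as scaling (-0.55, adjusted p = 0.59). The difference from expanded cells to plasmablasts (0.82 ± 0.14) had an adjusted p of 0.058 and was called under 8 alternatives. Among these were the F-test and the DESeq2 Wald test, neither with a fold threshold. The fits without expanded replicate 1 (0.95) and without plasmablast replicate 2 (0.94) also called it. From naive cells to plasmablasts (-0.48 ± 0.14) the adjusted p was 0.72. Btg1 over Btg2 was 1.40 and 1.53 in the naive pair, 2.89 and 2.55 in the 3 h pair, 0.919 and 1.03 in the 10 h pair, 0.571 and 0.581 in the 33 h pair, 0.689 and 0.885 in the expanded pair, and 0.111 and 0.138 in the plasmablast pair.

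Tob1 (Entrez 22057, chr11:94209842-94215495), the TOB member of the same adaptor family, had the narrowest range, 2.60-fold between its highest and lowest stage means. The naive libraries had RPKM values of 9.57 and 9.79, the 3 h pair 7.26 and 3.83, the 10 h pair 3.42 and 4.02, the 33 h pair 5.67 and 4.38, the expanded pair 5.38 and 5.26, and the plasmablast pair 7.31 and 7.18. The 3 h libraries are far apart, with replicate 1 near the plasmablast level and replicate 2 near that of 10 h. Tob1 was lower than in naive cells at 10 h (-1.38 ± 0.23, adjusted p = 0.0018) and at 33 h (-0.94 ± 0.22, adjusted p = 0.047). The call at 33 h was lost without either naive replicate (adjusted p = 0.090 and 0.10) or without 33 h replicate 2 (0.21). At 3 h, in expanded cells and in plasmablasts the log2 fold changes from naive were -0.83 ± 0.23, -0.86 ± 0.22 and -0.42 ± 0.22, none past the threshold. Without 3 h replicate 1 the value at 3 h was -1.34 and past it (adjusted p = 2.7e-04), and without 3 h replicate 2 the step from 3 h to 10 h was called (adjusted p = 0.011).

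Step by step, the calls fell on different members. From 3 h to 10 h, 4 fell (Klf3, Klf4, Btg1 and Btg2) and 0 rose, where 13.4% of all genes tested fell and 17.4% rose. From 10 h to 33 h, 2 fell (Klf6 and Btg1) and 0 rose, against 4.45% and 10.1% of all genes. From 33 h to expanded cells, 0 fell and 1 rose (Btg1), against 3.66% and 6.94% of all genes. From expanded cells to plasmablasts, 2 fell (Klf2 and Btg1) and 2 rose (Klf4 and Foxo3), against 12.2% and 13.9% of all genes. Counts this small do not set the 10 apart from all genes in the last 2 steps. Some calls were lost in fits without 1 library. These were Btg2 from 3 h to 10 h, Klf6 from 10 h to 33 h, Btg1 from 33 h to expanded cells and Klf4 to plasmablasts. The median log2 fold changes of the 10 in these steps were -0.44, -0.43, 0.14 and 0.48, beside 0.02, -0.02, -0.02 and -0.05 over all genes. By the F-test without a fold threshold, 6 of the 10 were higher and 2 lower in plasmablasts than in expanded cells.

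Scaling changed some calls and signs. Scaling by library size alone, without TMM, moved the median of all genes by -0.21 from naive to 3 h, by 0.33 from 3 h to 10 h and by -0.34 from expanded cells to plasmablasts, and the signs of Klf2, Klf13 and Foxo1 from 3 h to 10 h and of Klf13 and Foxo1 from expanded cells to plasmablasts, all not called, turned with it. It also ended the calls of Btg2 from 3 h to 10 h, of Klf4 from expanded cells to plasmablasts and of Tob1 from naive to 33 h (-0.88, adjusted p = 0.068, against -0.94 and 0.047 with TMM). Differences called with this scaling but not with TMM were those of Foxo3 from 3 h to 10 h, Tob1 from naive to 3 h (-1.05, adjusted p = 0.018) and Klf3 from 33 h to expanded cells (-0.98, adjusted p = 0.046).

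Genes that FOXO factors are known to drive, among them inhibitors of the cell cycle and of growth, mostly fell in the first 3 h. Of 21 listed, 20 were tested. Relative to naive cells, 12 fell and 5 rose by 3 h (median log2 fold change -1.45), 13 and 3 by 10 h (-1.33), 15 and 1 by 33 h (-1.58), 10 and 1 in the expanded population (-1.02) and 9 and 6 in plasmablasts (-0.84). For all genes tested, 19.9% to 24.3% fell and 19.5% to 26.6% rose in these comparisons. Txnip, an inhibitor of glucose uptake, was lower in all 5 later stages, from a mean of 199 RPKM in naive cells to 15.2 in expanded cells (-3.71 ± 0.14, adjusted p = 8.4e-10). Fbxo32, a ubiquitin ligase subunit known as a FOXO target in muscle, fell by 3.46 ± 0.16 on the log2 scale at 3 h, and Sesn1, a sestrin that restrains mTORC1, was at -2.76 ± 0.22 in expanded cells. On the other side, Bbc3, which encodes the cell death protein PUMA, was higher in all 5 stages and reached 4.66 ± 0.20 at 10 h, from 1.93 to 49.7 RPKM.

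From expanded cells to plasmablasts, 7 of the 20 FOXO targets rose and 0 fell, where 13.9% of all genes tested rose and 12.2% fell. Trp53inp1, a p53-induced stress gene, rose by 3.42 ± 0.19 on the log2 scale (adjusted p = 1.2e-07), from 18.3 to 196 RPKM, and Bcl2l11, which encodes the cell death protein BIM, by 2.21 ± 0.10 (adjusted p = 1.4e-08), from 19.0 to 88.0 RPKM. The others that rose were Ccng2, Cited2, Irs2, Insr and Fbxo32, named as the rest of the 7 after their values were seen. Many of these targets also respond to other factors, and which of them acted here was not tested. Il7r and Rag1, likewise targets, were listed at 0 in both libraries of plasmablasts and of 33 h, respectively, and no fold is given for them there.

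**Figure D5:**
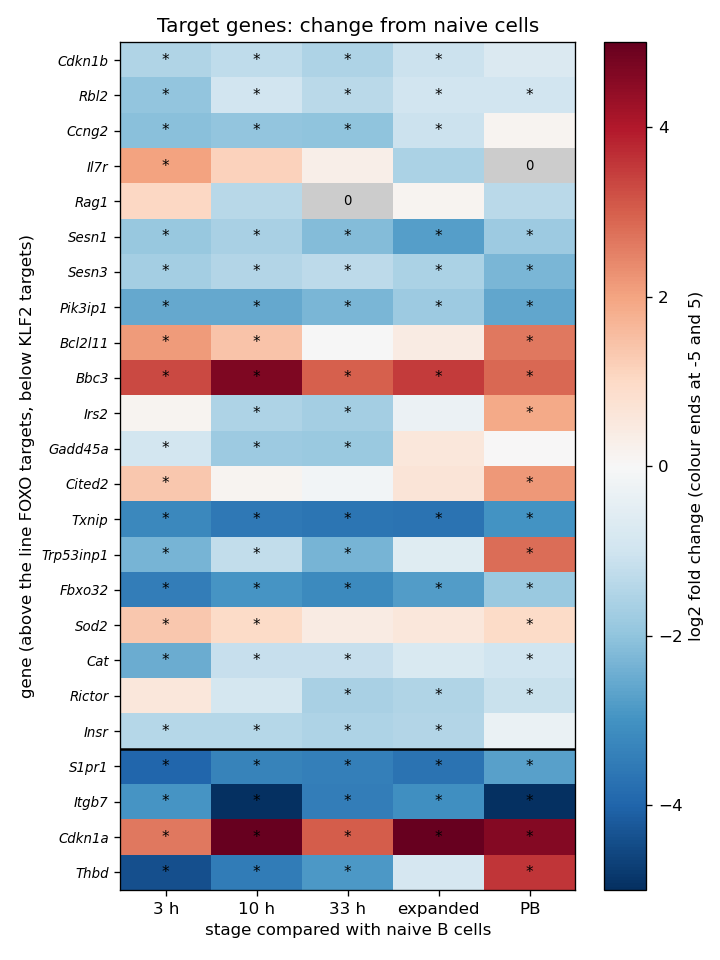
Log2 fold change from naive B cells (colour, ending at -5 and 5) of 20 FOXO target genes (above the line) and 4 KLF2 target genes (below it) at each later stage, with an asterisk where glmTreat called the change and grey with 0 where both libraries of the stage had no count. Blue, lower than naive, prevails in the first 3 columns for the FOXO targets (12, 13 and 15 of 20 fell), and in plasmablasts (PB) 6 of 20 are called higher.

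Of 5 KLF2 targets tested, 4 fell and 1 rose from naive cells to each of 3 h, 10 h and 33 h (medians -2.95, -3.51 and -2.89), 3 fell and 1 rose in expanded cells, and 3 fell and 2 rose in plasmablasts. From expanded cells to plasmablasts 2 rose and 2 fell. The shares of all genes tested were 13.9% higher and 12.2% lower in this step. Against naive cells they were 19.5% to 26.6% higher and 19.9% to 24.3% lower. With so few, 4 are named here, which was decided after their values were seen. S1pr1, the receptor by which lymphocytes leave lymphoid organs, fell from a naive mean of 160 RPKM to 10.2 by 3 h (-3.97 ± 0.22, adjusted p = 4.7e-08) and was at 24.4 in plasmablasts. Itgb7, the beta 7 integrin, was lowest at 10 h (1.32 RPKM, -6.82 ± 0.32). In the step from expanded cells to plasmablasts, in which Klf2 fell 51.8-fold, Itgb7 fell (-2.84 ± 0.28), whereas S1pr1 rose (0.99 ± 0.20, adjusted p = 0.038). Thbd, thrombomodulin, went from 0.203 to 4.45 RPKM in that step (4.43 ± 0.23), and Cdkn1a, the cell cycle inhibitor p21, was higher than in naive cells in all 5 stages, by 5.49 ± 0.34 at 10 h.

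Regulators of FOXO proteins moved in both directions, as did all genes tested. Of 19, 3 rose and 4 fell from naive to 3 h (median 0.29), 1 and 5 to 10 h (-0.27), 2 and 6 to 33 h (-0.25), 3 and 5 to expanded cells (-0.22) and 3 and 5 to plasmablasts (-0.26). Over these comparisons, 19.5% to 26.6% of all genes tested rose and 19.9% to 24.3% fell. Sgk1, an AKT-related kinase that phosphorylates FOXO proteins, had means of 4.80 RPKM when naive and 0.116 after 33 h (-5.36 ± 0.30, adjusted p = 1.6e-08). Pik3r1, a regulatory subunit of PI3 kinase, was lowest in plasmablasts (-1.58 ± 0.19). Skp2, a ubiquitin ligase subunit that marks FOXO1 for degradation, rose to 2.73 ± 0.18 in expanded cells, from 0.52 to 3.45 RPKM, and Mdm2, a ubiquitin ligase, to 1.25 ± 0.13 in plasmablasts. Stk4, the kinase MST1 that activates FOXO factors, rose at 3 h (1.15 ± 0.09, from 116 to 258 RPKM) and was below naive from 10 h on (-0.88 ± 0.09 at 10 h).

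Few genes of the machinery to which BTG and TOB proteins bind were called. All 11 CCR4-NOT genes were tested, and 0 fell from naive cells at any stage, while 2 rose by 3 h, 1 by 10 h, 2 by 33 h, 2 in the expanded population and 1 in plasmablasts (medians 0.48, 0.28, 0.17, 0.22 and 0.19). By comparison, 19.9% to 24.3% of all genes tested fell from naive cells at these stages and 19.5% to 26.6% rose. Cnot9, a scaffold subunit, reached 1.45 ± 0.10 at 33 h, Cnot7, the deadenylase that BTG and TOB proteins contact, 1.08 ± 0.09 at 3 h and Cnot6, another deadenylase, 1.03 ± 0.11 in expanded cells. Of the remaining BTG and TOB genes, Btg3 was higher than in naive cells at every later stage, by 2.73 ± 0.22 in plasmablasts (from 0.99 to 6.58 RPKM, adjusted p = 3.5e-07). From 10 h on this was the opposite direction to Btg1, which at 3 h was also above naive (0.45 ± 0.13, not called). Tob2 was at 35.0 RPKM in naive cells and 54.3 at 3 h, a difference that was not called, and was lower in expanded cells (-0.86 ± 0.15) and plasmablasts (-0.87 ± 0.16).

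Genes of proliferation, the counterpart of quiescence, were all called higher by 33 h. Of 14, 4 rose and 2 fell from naive to 3 h, 7 and 0 to 10 h, 14 and 0 to 33 h, 12 and 0 to expanded cells and 11 and 1 to plasmablasts, and the step from 10 h to 33 h alone had 10 higher and 1 lower (median 2.11). All genes tested had 19.5% to 26.6% higher and 19.9% to 24.3% lower than in naive cells, and 10.1% and 4.45% in that step. Ccnb1, cyclin B1, had a naive mean of 0.87 RPKM, and 0.302, 1.47 and 24.9 after 3 h, 10 h and 33 h, where its log2 fold change from naive was 4.81 ± 0.40 (adjusted p = 4.6e-06). Cdk1 stood at 5.19 ± 0.29 in plasmablasts and Ccna2, cyclin A2, at 5.06 ± 0.21 in expanded cells. At 10 h all 10 quiescence genes were called lower than in naive cells, and 7 of the 14 proliferation genes were called higher. Ccnb1, Cdk1 and Ccna2 were not among these 7. In plasmablasts, Ccnb1, Cdk1 and Ccna2 were all called higher while Foxo3, Btg2 and Tob1 had no called difference from naive cells. By the F-test with no fold threshold, Btg2 was lower there (-0.48 ± 0.14, adjusted p = 0.0071). Foxo3 and Tob1 were not called by that test (adjusted p = 0.24 and 0.11).

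Among the 12 libraries, the genes with the closest course to each member were described by Pearson's r of log2 CPM, over n = 12 libraries that fall into 6 stages, so that r mostly reflects the stage means. Herc3, Rcsd1 and Mfhas1 were nearest to Klf2 (r = 0.99, 0.99 and 0.99), Hivep2, Tor1aip1 and Snx29 to Klf3 (0.99, 0.99 and 0.99), and Pde4b, Rps27rt and Lats2 to Klf4 (0.97, 0.97 and 0.96). For Klf6 they were Zrsr1, Extl1 and Zfp935 (0.98, 0.97 and 0.96), and for Klf13 Agap2, Pik3r4 and Frat1 (0.98, 0.97 and 0.97). Serpinb6a, Pfdn5 and Pglyrp1 were nearest to Foxo1 (0.99, 0.99 and 0.98), and Fcrla, Glcci1 and Prcp to Foxo3 (0.98, 0.97 and 0.97). Cyld, Itsn2 and Itga6 were nearest to Tob1 (0.97, 0.95 and 0.94), Sox4, Arl2bp and Cyth1 to Btg1 (0.98, 0.98 and 0.98), and Slc8b1, Ptk2b and Bnip3l to Btg2 (0.98, 0.97 and 0.97). No member was among the 3 nearest genes of another, and ranking by Spearman's rho shared 1 of the 3 names for Foxo1, Tob1, Btg1 and Btg2 and 0 for the others. Between members, r ran from -0.19 for Klf2 and Foxo3 to 0.90 for Klf3 and Klf4.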

How the data were processed

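RNA-Seq of 12 libraries of mouse B cells was analysed, 2 for each of 6 stages. For these TruSeq libraries, paired-end reads from a NextSeq instrument were mapped by the authors with Rsubread (mm10), and featureCounts assigned them to Entrez genes. CASAVA 1.8.2 is named in the submitters' processing notes. The deposited values are raw counts per gene with the exon length, and the 12 single-sample files held the same counts as the series table. Strand use in the counting is not given in the sources used here, so a gene and an antisense partner cannot be told apart.

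Entrez IDs were matched to symbols in the RefSeq table of GRCm38.p6 (25275 of 27179). Unmatched IDs (1904), X and Y (1279), mitochondrial (15), ribosomal RNA (35) and variable immunoglobulin (475) genes were removed following the study's methods, and filterByExpr kept 12750 of 23473 genes. Klf8 and Foxo4 lie on the X chromosome and were left out of the tests. Counts were TMM normalised and fitted with edgeR 4.0.16 (limma 3.58.1, R 4.3.3), as a robust quasi-likelihood model with a one-way layout of all 12 libraries. glmTreat tested against a 1.5-fold change at a Benjamini-Hochberg adjusted p of 0.05 over all genes tested. The SE is the log2 fold change divided by the square root of its F statistic. RPKM used the TMM-scaled library sizes and the deposited lengths. A library's floor was 3 counts. The procedure was also run on counts simulated for naive to 3 h from the fitted spread of each gene. That spread is shared by all stages, so this run cannot show how the test does where replicates of a stage vary more.

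The 10 genes and the companion lists were chosen with earlier results of these data known, and the lists support nothing by themselves. Named genes are all 10 members, of each companion list at most the 3 called genes with the largest change in each direction over the comparisons with naive cells and from expanded cells to plasmablasts, apart from genes at the floor, and for each member the 3 genes with the highest Pearson r (log2 CPM, prior count 2). Alternatives were DESeq2 1.42.0 size factors and Wald test, library size alone, other filters on low counts, other dispersion settings, a replicate block, the 2 groups alone and leaving out each library. Hi-C data were not analysed here, and some genes of the companion lists are counted but not reported by name here.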

Additional observations from a re-analysis of the deposited data

How the results depend on the processing

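All calls against naive cells kept their direction and their side of the threshold under the alternatives tried, apart from Tob1, for which scaling by library size alone (adjusted p = 0.068) or leaving out 1 library ended the call at 33 h, and apart from members that become called where the threshold on the fold is dropped, the filter or scaling is changed, or a library or the other groups are left out. Counts of members called moved with the test. From naive to 3 h 9 were called by the DESeq2 Wald test and by the F-test, against 5, from 3 h to 10 h 8 and 7, against 4, from 10 h to 33 h 6 by each, against 2, from 33 h to expanded cells 5 and 4, against 1, and from expanded cells to plasmablasts 8 by each, against 4; neither test has a threshold on the fold. From 10 h to 33 h 1 was called with DESeq2 size factors, with no filter or with the 2 groups alone, and 1 to 2 when 1 library was left out. From 33 h to expanded cells 2 were called with library size alone, no filter, the 2 groups alone, the removed genes kept or the replicate block, and 0 to 1 when 1 library was left out. The cause was not tested.

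Differences that changed sign were all small and not called. With library size alone, these were Klf2, Klf13 and Foxo1 from 3 h to 10 h (0.17, 0.25 and 0.003) and Klf13 and Foxo1 from expanded cells to plasmablasts (-0.13 and -0.030), and with no filter Foxo3 from 33 h to expanded cells (-0.020). From 3 h to 10 h, Klf2 and Klf13 were at 0.18 and 0.087 without 3 h replicate 1, and Klf13 at 0.022 without 10 h replicate 1. From 10 h to 33 h, Klf3 was at 0.071 without 10 h replicate 2 and 0.098 without 33 h replicate 2, and Klf2 at -0.068 without 33 h replicate 1. From 33 h to expanded cells, Klf4 was at -0.14 without 33 h replicate 1 and -0.20 without expanded replicate 2, Foxo3 at -0.15 without 33 h replicate 2 and -0.079 without expanded replicate 2, and Foxo1 and Tob1 at -0.11 and -0.091 without 33 h replicate 2. Over all fits without 1 library, these ran from -0.49 to 0.18 (Klf2) and -0.29 to 0.087 (Klf13) from 3 h to 10 h, from -0.068 to 0.56 (Klf2) and -0.30 to 0.098 (Klf3) from 10 h to 33 h, and from -0.20 to 0.57 (Klf4), -0.15 to 0.22 (Foxo3), -0.11 to 0.25 (Foxo1) and -0.091 to 0.28 (Tob1) from 33 h to expanded cells. Where 1 library of a stage is left out, the other is assumed to vary like the other groups.

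Same-numbered libraries showed little sign of pairing. Over 15 pairs of stages their deviations correlated at -0.14 to 0.08, and 0 pairs were over 0.1. Low correlations do not show that the samples were unpaired. With the replicate block, 88 of 90 results kept their call, Klf3 from 33 h to expanded cells was called (-0.97, adjusted p = 0.033), and so was Btg2 from expanded cells to plasmablasts (0.83, adjusted p = 0.024). Low counts limit Klf4, which had 14 counts in its lowest library.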

Other observations

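Immediate early genes, which are induced within minutes of a stimulus and also by cell handling, are often measured beside Klf2 and Btg2. Of 14 listed and tested, 6 rose and 0 fell from naive to 3 h, 1 rose and 12 fell from 3 h to 10 h, and 5 rose and 1 fell from expanded cells to plasmablasts. In the same steps, 21.0%, 17.4% and 13.9% of all genes tested rose and 24.3%, 13.4% and 12.2% fell. Atf3 reached a log2 fold change of 5.99 ± 0.25 from naive cells at 33 h, Nr4a1 5.17 ± 0.32 at 3 h, from 11.1 to 401 RPKM, and Hspa1a 3.25 ± 0.29 at 3 h. Fosb stood at -4.55 ± 0.43 at 33 h, Fos at -4.25 ± 0.69 at 10 h and Egr2 at -2.65 ± 0.44 at 10 h. The part of cell handling in the values of the 10 genes was not tested.

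A search of 3′ UTRs was chosen once the data had been seen. The AU-rich nonamer TTATTTATT was in the longest annotated 3′ UTR (GENCODE M21) of 0 of the 10 genes, against 7.89% of 11542 tested genes with a 3′ UTR. The core ATTTA occurred 1 to 13 times in each of the 10, whose 3′ UTRs were 737 to 6240 bases long, against a median of 1 time in a median length of 1134 bases.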
